A study of Mus musculus with 96 samples.

Results

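The E2f transcription factors 1 to 8 were followed as mRNA while serum-starved mouse embryonic fibroblasts were returned to growth, and the rows of all 8 genes, chosen by their symbols, were found among the 15895 genes of the table. The cells were primary fibroblasts (MEFs) from embryonic day 13 embryos of the CF-1 mouse strain, carrying no transgene or mutation named in the labels. They were kept in 0.5% fetal calf serum (FCS) for 36 h, and FCS was brought to 20% at 0 h. Poly(A) RNA was sequenced in 2 time courses, called Cycle 1 (63 libraries, from -1 h to 38 h) and Cycle 2 (32 libraries, from -1 h to 27 h). The -1 and 0 h libraries, 2 in each Cycle, are the starved reference. Values are reads per 10000000 in each library, and whole reads recovered from them gave depths of 5067426 to 14500314 reads.

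E2F proteins bind DNA at the promoters of genes for DNA replication and the cell cycle. E2f1, E2f2 and E2f3 are the activators, which drive the G1/S genes once the retinoblastoma family of pocket proteins has been phosphorylated by cyclin-dependent kinases and releases them. E2f4 and E2f5 bind those genes with the pocket proteins p107 and p130 in resting cells, E2f6 acts in a Polycomb-type complex without pocket proteins, and the atypical E2f7 and E2f8 repress without a dimer partner. Several E2f genes carry E2F sites themselves, which makes the family part of its own regulation.

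The mRNAs of the family separated into an early and a late group. E2f4 was 2.00-fold higher at 4-8.5 h after serum than in starved cells, while E2f1 and E2f2 were below the starved level. E2f1, E2f2, E2f7 and E2f8 were each higher at 14-18.5 h than at 4-8.5 h in both Cycles, a contrast chosen after the values were seen. In Cycle 2 the course of E2f2 was otherwise unlike those of E2f1, E2f7 and E2f8. E2f6 rose in steps to the same hours, E2f3 was raised slightly and E2f5 was nearly level. Against the starved cells the size of the late rise differed between the Cycles, and the starved cells of Cycle 2 held more E2f2, E2f7 and E2f8 mRNA. Since these are bulk libraries, a change in the number of cells at one stage and a change in RNA per cell cannot be told apart.

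The promoter sequences are shown for the members that hold one of the searched motifs upstream of a start and changed with time. RefSeq (build GRCm38.p6) gave stretches of 300 bases, from 250 before to 50 after a start, for 6 of the 8 members and for 8 starts in all. E2f4 and E2f5 were not among them. The letters searched, on both strands, were TTTCCCGC, TTTCGCGC, TTTGCCGC and TTTGGCGC (E2F sites), CCAAT (the NF-Y site), TTTGAA (the CHR element) and CACGTG (the E-box). Over all 32851 stretches of the same length, an E2F site stood in 2.26%, CCAAT in 37.41%, CHR in 17.89% and the E-box in 7.15%. Capitals below mark these letters or their reverse complement, and the last base of each run of 250 is position -1.
E2f7, chr10:110745189-110745438, plus strand: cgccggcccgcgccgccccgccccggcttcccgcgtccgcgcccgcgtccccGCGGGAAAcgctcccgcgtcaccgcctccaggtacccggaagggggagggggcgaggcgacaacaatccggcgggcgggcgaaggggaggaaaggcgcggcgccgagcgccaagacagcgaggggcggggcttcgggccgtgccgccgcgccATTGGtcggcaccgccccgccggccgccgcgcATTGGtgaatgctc
E2f8, 30 bases around its CCAAT box, chr7:48881691-48881720, minus strand: gcagaggcgcggATTGGcgcgcggggcccc
E2f8, 30 bases around its CHR element, chr7:48881599-48881628, minus strand: gagcgggttaatTTCAAAtcgggggctgga
E2f2, first start, chr4:136172024-136172273, plus strand: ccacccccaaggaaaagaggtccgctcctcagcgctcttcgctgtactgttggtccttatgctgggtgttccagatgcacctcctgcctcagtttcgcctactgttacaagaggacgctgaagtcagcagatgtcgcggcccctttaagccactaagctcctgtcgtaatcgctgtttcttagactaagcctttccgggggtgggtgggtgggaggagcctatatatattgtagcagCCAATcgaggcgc
E2f2, first start, 30 bases around a site after the start, chr4:136172294-136172323: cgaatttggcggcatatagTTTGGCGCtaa
E2f3, first start, chr13:29986064-29986313, minus strand: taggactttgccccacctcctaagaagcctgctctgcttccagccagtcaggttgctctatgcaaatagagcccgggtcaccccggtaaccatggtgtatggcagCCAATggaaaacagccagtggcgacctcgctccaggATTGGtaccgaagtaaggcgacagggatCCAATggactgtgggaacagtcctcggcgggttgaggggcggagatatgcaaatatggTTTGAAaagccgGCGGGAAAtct

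In E2f7 an E2F site began at position -198 and CCAAT boxes began at -46 and -14. E2f8 held a CCAAT box at -112 and a CHR element at -20, with no E2F site by these letters. E2f2 had a CCAAT box at -13 and an E2F site at 40, counted from 1 at the start. The first start of E2f3 had an E2F site at -11, a CHR element at -23 and CCAAT boxes at -145, -109 and -81. The second start of E2f3 held an E-box at -24, and the second start of E2f2 held a CHR element at -31 and CCAAT boxes at -174, -133 and -53. No motif was found for E2f1 and E2f6. The listed starts of E2f1 and E2f8 lay 466 and 477 bases inside the gene, and the second starts of E2f2 and E2f3 lay 8508 and 1673 bases inside. A match is a description of the letters only.

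Changes were tested with limma on log2(value + 1), with the Cycle as a covariate, in windows of successive hours against the 4 starved libraries. A member is called higher or lower where the p-value adjusted over all genes is under 0.05. Nothing in the labels says that the libraries came from separate cultures, so these p-values measure the spread of the libraries around a window mean. Spread between successive libraries may be technical, and the time trend inside a window and differences in change between the Cycles add to it. Over all genes the median log2 change against starved was -0.26, -0.22 and -0.12 in the windows of 0.5-3.5 h, 4-8.5 h and 14-18.5 h. Under TMM scaling those medians became -0.05, -0.08 and -0.07, and no called member changed direction.

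**Figure D1:**
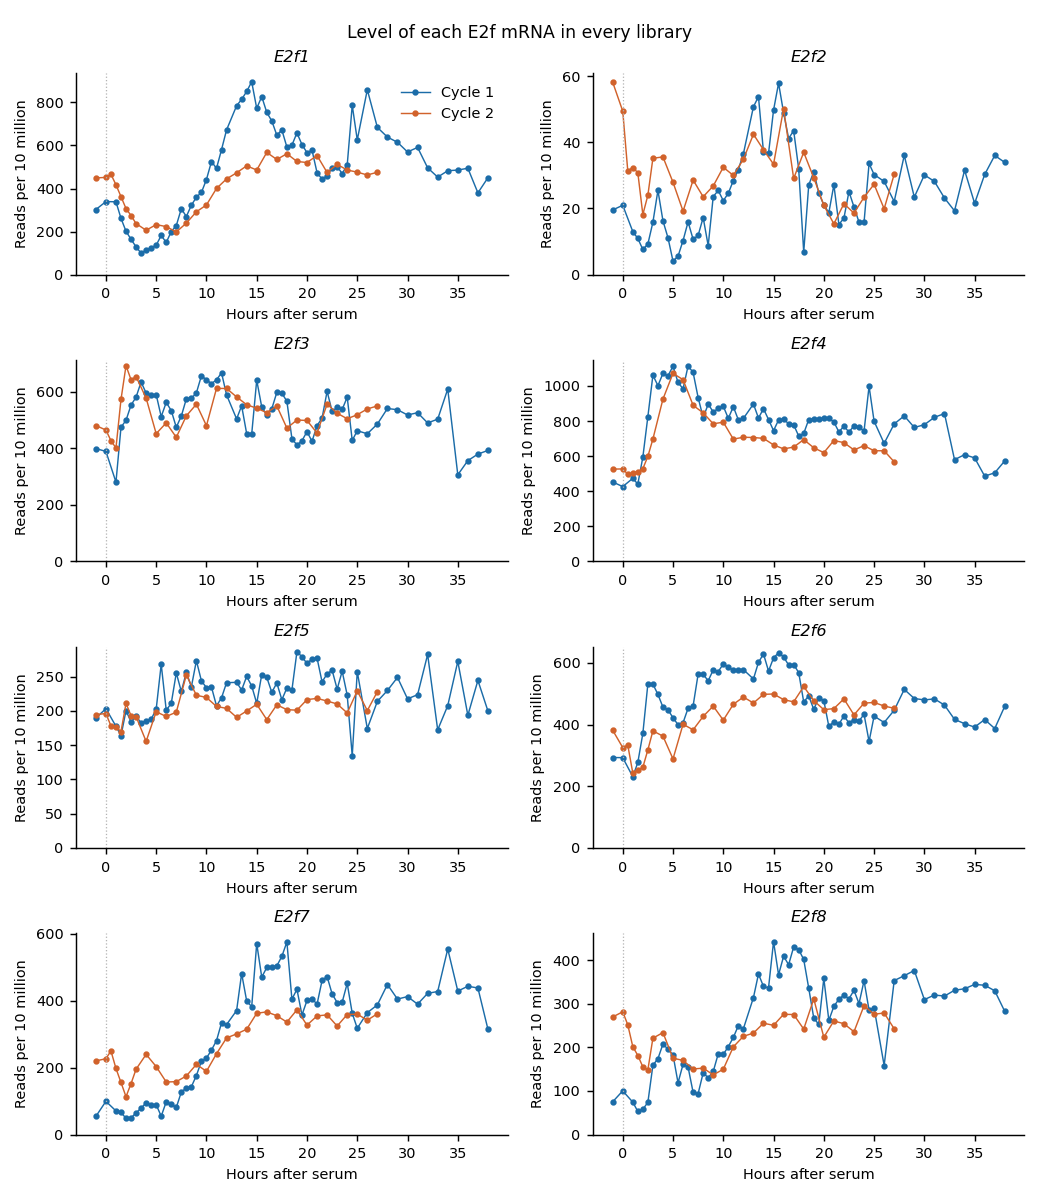
Reads per 10000000 for each member in every library (points), plotted against hours after serum, with Cycle 1 in blue and Cycle 2 in orange. E2f1 fell from 339 at 0 h to 99.5 at 3.5 h of Cycle 1 and stood at 896 at 14.5 h, while E2f4 was at 1114 at 6.5 h.

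E2f1, the founding activator (chr2:154385143-154395628, minus strand, 7 exons in its main coding transcript, NCBIM37), fell before it rose. Starved cells held 302 and 339 reads per 10000000 in Cycle 1 and 449 and 452 in Cycle 2. At 4-8.5 h its level ran from 114 through a median of 206 to 322 over 15 libraries. Of these libraries 13 lay below all starved ones. At 14-18.5 h its level ran from 486 through 648 to 896, and all 15 libraries lay above all starved ones. Its lowest level was at 3.5 h in Cycle 1 (99.5) and at 7 h in Cycle 2 (198), and its highest up to 27 h was at 14.5 h (896) and at 16 h (568).

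The log2 change of E2f1 against starved was -0.93 ± 0.22 (SE) at 4-8.5 h, with an adjusted p of 0.000177 from limma. It was 0.78 ± 0.22 at 14-18.5 h (adjusted p 0.00162 from limma). In Cycle 1 alone the later value was 1.18 ± 0.28 and in Cycle 2 alone it was 0.24 ± 0.18, which did not pass (adjusted p 0.321, limma). The early fall at 0.5-3.5 h (-0.62 ± 0.23, adjusted p 0.0177) did not pass without the -1 h (-0.53, adjusted p 0.0748) or the 0 h library (-0.53, adjusted p 0.0746) of Cycle 2. The later rises also rested on the starved libraries of Cycle 1. At 24-27 h the log2 change of 0.61 became 0.49 without the -1 h library (adjusted p 0.103). Without the 0 h library it became 0.55 (adjusted p 0.0695). At 28-32 h the 0.59 became 0.47 (adjusted p 0.175) and 0.53 (adjusted p 0.127) in those fits. In Cycle 1 alone, which holds all libraries of 28-32 h, the change there was 0.855 ± 0.306 (adjusted p 0.014, limma).

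E2f2, an activator known for its part in blood cell precursors (chr4:135728309-135751972, plus strand), was the scarcest member. Its highest level in any library was 58.2 reads per 10000000 and its lowest, at 5 h of Cycle 1, was 4.06, which is 4 reads. Starved cells held 19.5 and 21.0 in Cycle 1 and 58.2 and 49.4 in Cycle 2, so the groups of the 2 Cycles did not overlap before serum. At 4-8.5 h it ran from 4.06 through 15.9 to 35.6, and at 14-18.5 h from 6.81 through 37.0 to 57.9. The lowest of the later values was the 18 h library of Cycle 1, far under its neighbours.

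Against starved, E2f2 fell by 1.08 ± 0.30 on the log2 scale at 4-8.5 h (adjusted p 0.000993 from limma). The value at 0.5-3.5 h was -0.77 ± 0.30 (adjusted p 0.0257), which did not pass without the -1 h (-0.58, adjusted p 0.142) or the 0 h library (-0.66, adjusted p 0.0937) of Cycle 2. From 9 h on none of its changes passed by limma in the fit to both Cycles, while edgeR on recovered reads called it lower at 19-23.5 h (-0.63, adjusted p 0.0247). In Cycle 2 alone it was called lower by limma at 9-13.5 h (-0.69 ± 0.24, adjusted p 0.0278), at 19-23.5 h (-1.33 ± 0.24, adjusted p 8.37e-05) and at 24-27 h (-1.07 ± 0.25, adjusted p 0.00142).

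E2f3, the activator with the longest gene of the family (chr13:29998444-30077537, minus strand), moved little and early. Starved libraries held 398 and 388 in Cycle 1 and 480 and 464 in Cycle 2. At 0.5-3.5 h it ran from 280 through 562 to 691, and its lowest value was at 1 h in both Cycles. At 9-13.5 h it ran from 479 through 603 to 666, where 13 of 14 libraries lay above all starved ones. Its log2 change was 0.46 ± 0.12 at 9-13.5 h (adjusted p 0.000647 from limma). In Cycle 1 alone it was 0.62 ± 0.17, and in Cycle 2 alone it was 0.26 ± 0.15, which did not pass (adjusted p 0.198, limma).

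The smaller changes of E2f3 at 4-8.5 h (0.30 ± 0.12) and at 14-18.5 h (0.30 ± 0.12) passed with all libraries. They did not pass without the -1 h library of Cycle 1 (0.27 and 0.26, adjusted p 0.0843 and 0.0919) or without its 0 h library (0.25 and 0.25, adjusted p 0.0995 and 0.11). At 0.5-3.5 h the change was 0.27 (adjusted p 0.0563), which passed without the -1 h library of Cycle 2 (0.32, adjusted p 0.0454) and with TMM scaling (0.49, adjusted p 0.00153). The Cycle 1 library at 35 h stood low, at 306 beside 609 at 34 h.

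E2f4, the most abundant member and the main E2F of resting cells (chr8:107821563-107829269, plus strand), rose first. Starved cells held 452 and 426 in Cycle 1 and 526 and 527 in Cycle 2. At 4-8.5 h its level ran from 819 through 1020 to 1114, wholly above the starved libraries. At 14-18.5 h it ran from 641 through 745 to 870, still wholly above them. It had its highest level at 6.5 h in Cycle 1 (1114) and at 5 h in Cycle 2 (1072).

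On the log2 scale E2f4 was higher by 1.00 ± 0.10 at 4-8.5 h (adjusted p 6.37e-14 from limma), with 1.19 in Cycle 1 alone and 0.85 in Cycle 2 alone. The change was 0.60 ± 0.10 at 14-18.5 h and 0.55 ± 0.11 at 24-27 h, and 0.10 ± 0.12 at 33-38 h, where it no longer passed. In Cycle 1 alone, which holds all libraries of 33-38 h, it was 0.34 ± 0.16 there (adjusted p 0.081, limma). At 24-27 h it was 0.85 ± 0.17 in Cycle 1 alone and 0.24 ± 0.11 in Cycle 2 alone, where it did not pass (adjusted p 0.0928, limma). The first change, 0.36 ± 0.11 at 0.5-3.5 h (adjusted p 0.00314, limma), did not pass without the 0 h library of Cycle 1 (0.27, adjusted p 0.057). It was nearly all from Cycle 1, with 0.65 there and 0.07 in Cycle 2.

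E2f5, the second pocket-protein partner (chr3:14578671-14606308, plus strand), kept the narrowest range of the family. Starved values were 189 and 203 in Cycle 1 and 195 and 196 in Cycle 2. Over all 95 libraries it ran from 134 through 216 to 286, and its lowest value was the 24.5 h library of Cycle 1. It was called higher in 1 window, 19-23.5 h, with values of 201, 254 and 286 (lowest, median, highest) and a log2 change of 0.30 ± 0.10 (adjusted p 0.0046 from limma). In Cycle 2 alone that change was 0.12 ± 0.11. With TMM scaling it was also called at 4-8.5 h (0.25, adjusted p 0.014), 9-13.5 h (0.27, adjusted p 0.0103), 14-18.5 h (0.21, adjusted p 0.0394) and 28-32 h (0.29, adjusted p 0.0223).

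E2f6, the Polycomb-linked repressor (chr12:16817771-16833549, plus strand), dipped at 1 h and then rose. Starved cells held 293 and 293 in Cycle 1 and 382 and 326 in Cycle 2. Its lowest level was at 1 h in both Cycles, 231 and 243. In Cycle 1 it reached 532 at 2.5 h, fell back to 399 at 5.5 h and stood at 633 at 15.5 h. In Cycle 2 it was at 380 at 3 h, 289 at 5 h and 523 at 18 h. The 380 did not exceed the -1 h library of Cycle 2, and the 289 was a single library between 362 at 4 h and 401 at 6 h.

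E2f6 was higher by 0.40 ± 0.12 on the log2 scale at 4-8.5 h, with 0.67 ± 0.15 in Cycle 1 alone and 0.07 ± 0.13 in Cycle 2 alone, where it did not pass (adjusted p 0.708, limma). It was higher by 0.71 ± 0.12 at 9-13.5 h and 0.74 ± 0.12 at 14-18.5 h (adjusted p 9.34e-08 from limma for the last). At 14-18.5 h its libraries ran from 474 through 569 to 633, all above the starved ones. The change then eased to 0.42 ± 0.12 at 19-23.5 h and 0.42 ± 0.13 at 24-27 h. At 33-38 h it was 0.28 ± 0.14 (adjusted p 0.0928), which passed without the -1 h library of Cycle 2 (0.38, adjusted p 0.0272). In Cycle 1 alone, which holds all libraries of that window, E2f6 was called higher (0.49 ± 0.16, adjusted p 0.0102, limma). It was the one member called lower from 14-18.5 h to 24-27 h (-0.32 ± 0.09, adjusted p 0.00776, limma), and 9.97% of all genes were. That fall was -0.49 in Cycle 1 alone and -0.09 in Cycle 2 alone, where it did not pass.

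E2f7, an atypical repressor with a pair of DNA-binding domains (chr10:110182495-110224440, plus strand), had the largest log2 rise over starved among the members in the fit to both Cycles. Starved cells held 54.1 and 99.4 in Cycle 1 and 220 and 227 in Cycle 2. Its lowest level was at 2 h in both Cycles, 48.4 and 113. At 14-18.5 h its level ran from 382 through 500 to 576 in Cycle 1 and from 315 through 355 to 367 in Cycle 2. In each Cycle every library of that window lay above both starved libraries. Its log2 change was 1.79 ± 0.25 (adjusted p 2.84e-09 from limma), with 2.69 ± 0.23 in Cycle 1 alone and 0.63 ± 0.20 in Cycle 2 alone, where E2f4 rose more (0.85 ± 0.10 at 4-8.5 h).

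The higher level of E2f7 lasted to the end of Cycle 1, with a log2 change of 1.88 ± 0.29 at 33-38 h (adjusted p 8.95e-08, limma). Against the starved libraries of Cycle 1 alone it was 2.53 ± 0.24 there. At 0.5-3.5 h the change was -0.31 ± 0.26 and did not pass, except without the -1 h library of Cycle 1 (-0.67, adjusted p 0.0415).

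E2f8, the other atypical repressor (chr7:56121799-56136966, minus strand), had a course like that of E2f7 (Pearson r 0.91 in Cycle 1 and 0.82 in Cycle 2). An early peak of E2f8 in Cycle 1 was the exception, since E2f7 was at 94.6 at 4 h. Starved cells held 75.2 and 100.3 in Cycle 1 and 270.0 and 282 in Cycle 2. In Cycle 1 it fell to 53.1 at 1.5 h, rose to 208 at 4 h, fell back to 94.1 at 7.5 h and reached 443 at 15 h. In Cycle 2 it fell to 137 at 9 h and its highest later level was 311 at 19 h. At 14-18.5 h the Cycle 2 libraries ran from 242 through 256 to 276, so none lay above the starved 282.

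At 4-8.5 h the log2 change of E2f8 was 0.002 ± 0.244 in the fit to both Cycles. It was 0.72 in Cycle 1 alone and -0.66 in Cycle 2 alone, and both passed (adjusted p 0.0208 and 0.007, limma). The log2 change of E2f8 at 14-18.5 h was 1.14 ± 0.24 (adjusted p 3.53e-05 from limma), but 2.14 ± 0.28 in Cycle 1 alone and -0.09 ± 0.19 in Cycle 2 alone. At 19-23.5 h the change of 0.89 was 0.55 without the -1 h library of Cycle 1 and did not pass (adjusted p 0.0687). At 24-27 h the change of 0.83 became 0.50 without that library (adjusted p 0.122) and 0.64 without the 0 h library of Cycle 1 (adjusted p 0.0519). At 9-13.5 h the change of 0.46 (adjusted p 0.101) passed without the -1 h (0.70, adjusted p 0.0207) or the 0 h library (0.73, adjusted p 0.0167) of Cycle 2.

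**Figure D2:**
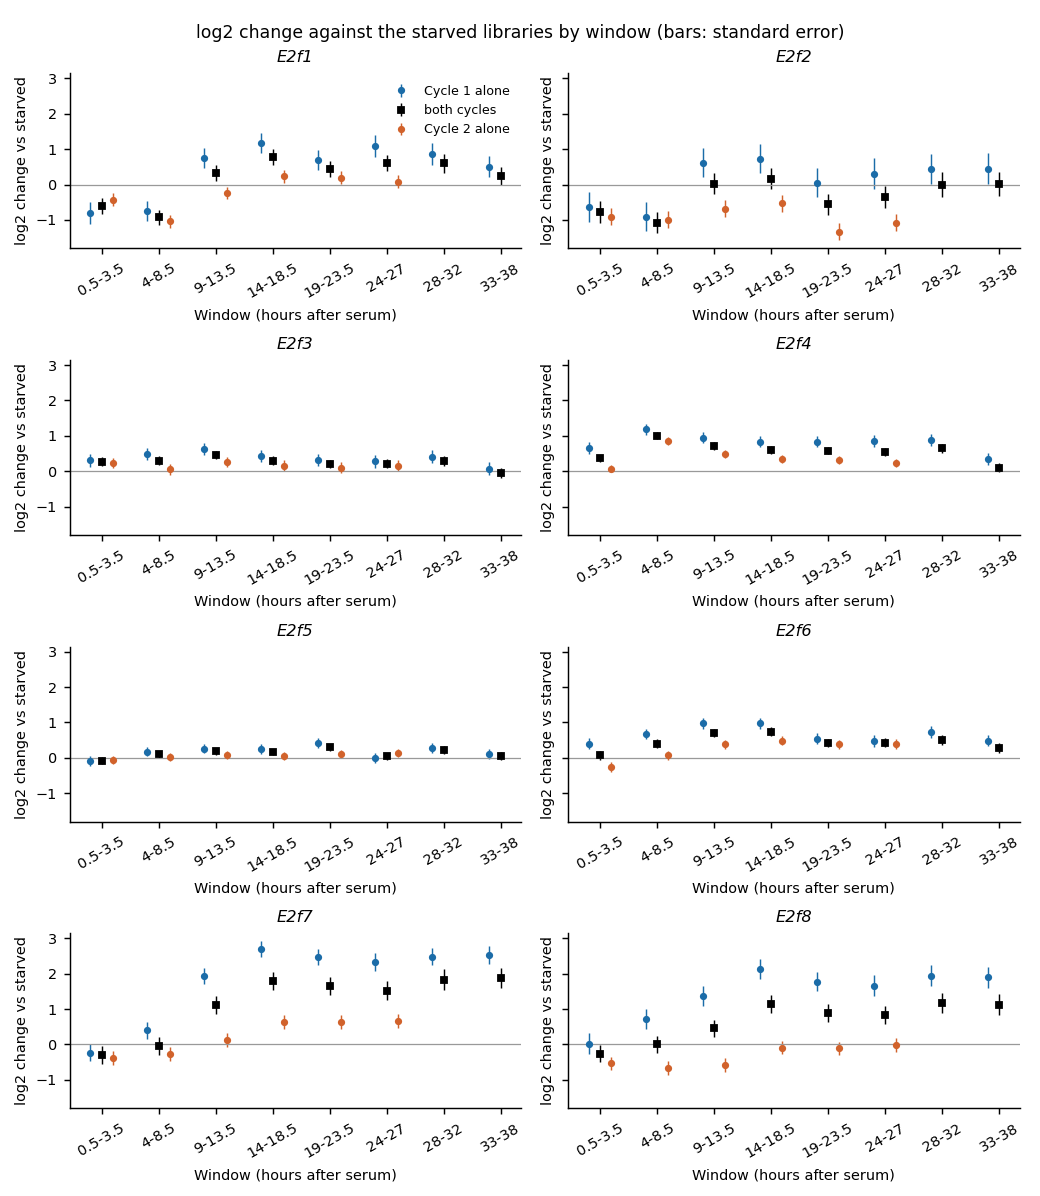
log2 change of each member against the starved libraries (vertical axis) in windows of hours after serum (horizontal axis), fitted in both Cycles (black squares), Cycle 1 alone (blue) and Cycle 2 alone (orange), with standard errors as bars. At 14-18.5 h E2f8 stood at 2.14 in Cycle 1 and at -0.09 in Cycle 2, while E2f4 at 4-8.5 h stood at 1.19 and 0.85.

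The counts of members called higher are read against the share of all genes called higher. At 0.5-3.5 h 1 of 8 was higher (13.5% of all genes), and at 4-8.5 h 3 of 8 (22.8%). At 9-13.5 h 4 of 8 were higher (24.2%), and at 14-18.5 h 6 of 8 (26.8%). The exceptions at 14-18.5 h were E2f2 and E2f5, with log2 changes of 0.16 and 0.16. The later counts were 5 of 8 at 19-23.5 h (27.4%), 5 of 8 at 24-27 h (24.5%), 5 of 8 at 28-32 h (24.4%) and 2 of 8 at 33-38 h (22.1%). The last 2 windows hold libraries of Cycle 1 only. Their counts are from the fit to both Cycles, so the starved libraries of Cycle 2 also set the reference. In Cycle 1 alone E2f6 was called higher at 33-38 h as well (0.49 ± 0.16, adjusted p 0.0102, limma).

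Lower calls were made in the first windows. In the fit to both Cycles the same 2 members, E2f1 and E2f2, were lower at 0.5-3.5 h and at 4-8.5 h, beside 39.3% and 41.4% of all genes. E2f8 was called lower in both windows in Cycle 2 alone (-0.53 ± 0.19, adjusted p 0.0413, and -0.66 ± 0.19, adjusted p 0.007, limma). In Cycle 1 alone it was called higher at 4-8.5 h (0.72 ± 0.28, adjusted p 0.0208, limma). In the fit to both Cycles no member was called lower than starved by limma in a later window. In Cycle 2 alone E2f2 was called lower at 9-13.5 h, 19-23.5 h and 24-27 h and E2f8 at 9-13.5 h (-0.57 ± 0.19, adjusted p 0.0219, limma). At 14-18.5 h the median log2 change was 0.67 over the members and -0.12 over all genes.

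At single hours sampled in both Cycles, limma's F test over 29 hours called 7 of the 8 members, and 79.3% of all genes. E2f2 was the exception (adjusted p 0.0685), and it passed with a pseudocount of 5 (adjusted p 0.0424). E2f4 was higher at 26 of the 29 hours, from 2.5 h on, E2f6 at 20, from 3 h on, and E2f7 at 16, from 12 h on. E2f3 was higher at 11 hours, E2f5 at 6, E2f1 at 3 and E2f8 at 2, and E2f1 was lower at 6 and E2f2 at 3. Taking all hours and genes together, 17.1% of the tests were higher and 27.8% lower.

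The contrast of 14-18.5 h with 4-8.5 h, chosen after the values were seen, does not use the starved libraries. E2f1 was higher at the later hours by 1.71 ± 0.14 on the log2 scale, which is 3.26-fold. E2f7 was higher by 1.83 ± 0.16 (3.56-fold), E2f2 by 1.24 ± 0.19 (2.37-fold), E2f8 by 1.14 ± 0.16 (2.20-fold) and E2f6 by 0.34 ± 0.08 (1.27-fold). E2f4 fell by 0.41 ± 0.07 (0.755-fold). E2f3 (-0.004 ± 0.077) and E2f5 (0.07 ± 0.06) did not pass. Thus 5 members were higher, beside 36.9% of all genes, and 1 was lower, beside 25.5%.

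The same 6 members passed in each Cycle alone, beside 58.9% of all genes called in either direction in Cycle 1 and 40.0% in Cycle 2. In size, E2f1 was at 1.92 in Cycle 1 and 1.27 in Cycle 2, E2f2 at 1.63 and 0.47, E2f7 at 2.29 and 0.91, and E2f8 at 1.42 and 0.57. E2f4 was at -0.36 ± 0.09 and -0.50 ± 0.08, and E2f6 at 0.30 ± 0.09 and 0.42 ± 0.10. The difference between the Cycles in this contrast, tested after the values were seen, passed by limma for 3 of the 8 members, beside 7.64% of all genes. Cycle 2 minus Cycle 1 was -1.38 ± 0.22 for E2f7 (adjusted p 3.02e-06), -1.17 ± 0.37 for E2f2 (adjusted p 0.0369) and -0.85 ± 0.26 for E2f8 (adjusted p 0.0303), and -0.65 ± 0.27 for E2f1 did not pass (adjusted p 0.134).

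**Figure D3:**
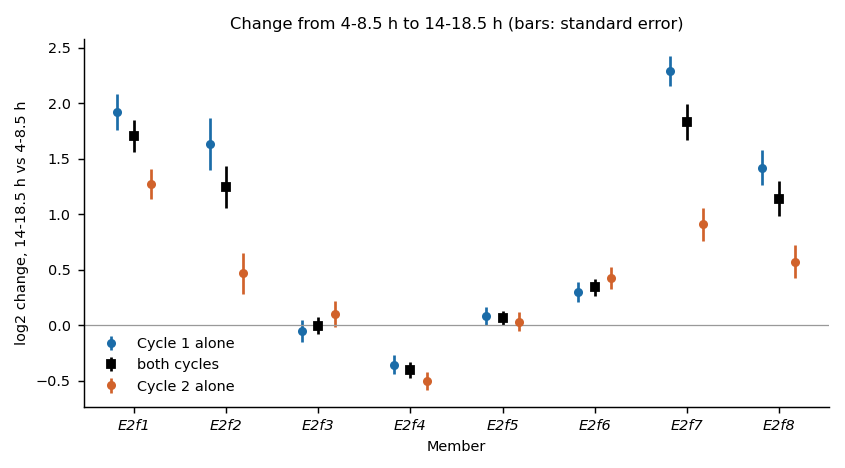
log2 change from 4-8.5 h to 14-18.5 h for each member, fitted in both Cycles (black squares), Cycle 1 alone (blue) and Cycle 2 alone (orange), with standard errors as bars. E2f1, E2f2, E2f7 and E2f8 lie above 0 in both Cycles and E2f4 lies below, at -0.36 and -0.50.

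The 2 Cycles began from different levels. Before serum Cycle 2 was above Cycle 1 by 1.59 ± 0.29 on the log2 scale for E2f7 (adjusted p 2.24e-05 from limma), 1.66 ± 0.34 for E2f8 (adjusted p 0.000168) and 1.36 ± 0.48 for E2f2 (adjusted p 0.0348). These 3 of 8 compare with 9.53% of all genes. E2f1 differed by 0.49 ± 0.34 and E2f5 by -0.01 ± 0.15, and neither passed. The 2 starved libraries of Cycle 1 also differed between themselves in E2f7, with 54.1 at -1 h and 99.4 at 0 h.

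The change from starved differed between the Cycles for 5 of the 8 members by limma's F test of the interaction, beside 37.3% of all genes. These were E2f1 (adjusted p 0.00011), E2f2 (0.00274), E2f6 (0.00309), E2f7 (9.16e-13) and E2f8 (1.4e-07). At 14-18.5 h the difference between the changes, Cycle 2 minus Cycle 1, was -2.06 ± 0.33 for E2f7 and -2.23 ± 0.39 for E2f8. For E2f3 (adjusted p 0.337), E2f4 (0.193) and E2f5 (0.0583) the F test did not pass. At 14-18.5 h 6 of the 8 members were called higher in Cycle 1 alone (26.3% of all genes) and 3 in Cycle 2 alone, E2f4, E2f6 and E2f7 (16.5%).

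Against E2f1 itself, used as the reference in each library, E2f7 gained 1.01 ± 0.22 on the log2 scale from starved to 14-18.5 h (adjusted p 3.49e-05 from limma), and 3.45% of all genes gained. In Cycle 2 alone its gain was 0.40 (adjusted p 0.125). E2f5 dropped by 0.61 ± 0.24 (adjusted p 0.0181), as did 66.7% of all genes, but not without the -1 h (-0.53, adjusted p 0.0816) or the 0 h library (-0.56, adjusted p 0.0655) of Cycle 1. E2f8 (0.36 ± 0.29), E2f6 (-0.04 ± 0.27), E2f4 (-0.18 ± 0.28), E2f3 (-0.48 ± 0.28) and E2f2 (-0.62 ± 0.29) did not pass. From 14-18.5 h to 24-27 h no member passed by limma, at an unadjusted p under 0.05 either, beside 2.49% of all genes.

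The order in time was read from running medians of 3 successive libraries, up to 27 h. E2f4 reached the midpoint of its highest log2 rise at 2.5 h in Cycle 1 and 4 h in Cycle 2, E2f3 at 2.5 and 1.5 h, and E2f6 at 2.5 and 8 h. E2f7 did so at 9.5 and 12 h and E2f1 at 11 and 15 h. By this measure the repressor E2f7 was ahead of the activator E2f1 in both Cycles. The rise timed was 2.84 and 0.70 for E2f7, and 1.41 and 0.32 for E2f1. E2f1 had first fallen further below starved, to -1.48 and -1.01, beside -0.56 and -0.55 for E2f7. E2f5 gave 7.5 and 8 h on a rise of 0.51 and 0.22. E2f8 gave 4 h in Cycle 1, where its first peak already passed the midpoint of 2.28, and its rise in Cycle 2 was 0.02, so no hour is given for it.

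Because E2f1, E2f2, E2f7 and E2f8 first fell, the halfway point from the lowest running median ahead of the highest one up to that highest one was added after the values were seen. It was at 8.5 h in Cycle 1 and 11 h in Cycle 2 for E2f1, at 9 and 11 h for E2f7 and at 9 and 10 h for E2f2, whose lowest running median in Cycle 2 came later, at 22 h. E2f8 passed it at 3 and 12 h. By this measure E2f1 was ahead of E2f7 in Cycle 1, at neighbouring libraries, and level with it in Cycle 2. E2f4, at 2.5 and 4 h, was ahead of both by hours. With 2 time courses this order has no test.

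**Figure D4:**
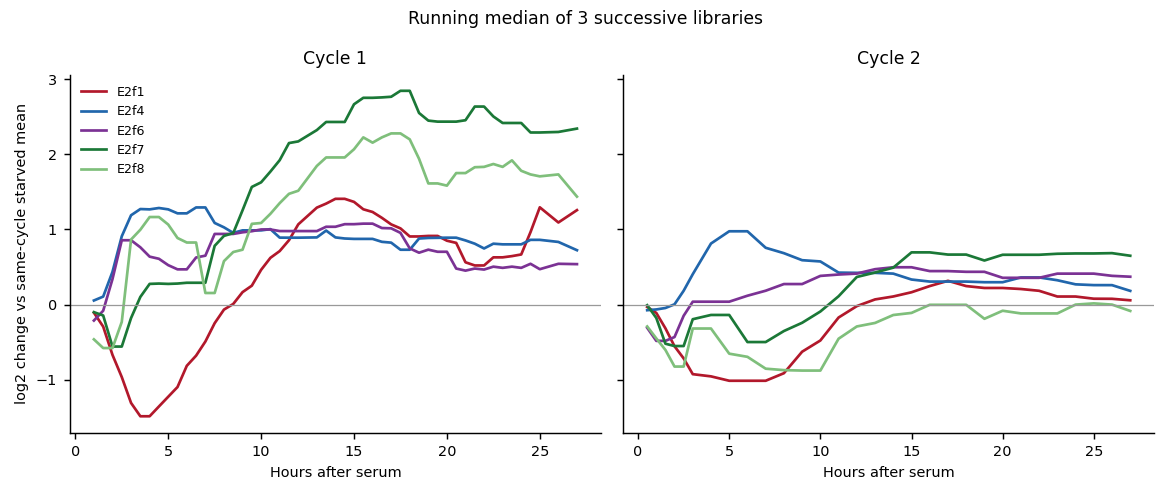
Running median of 3 successive libraries of the log2 change against the same-cycle starved mean (vertical axis) for E2f1, E2f4, E2f6, E2f7 and E2f8, plotted against hours after serum in Cycle 1 (left) and Cycle 2 (right). E2f4 rises first, to 1.29 and 0.98, while E2f1 falls to -1.48 and -1.01.

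Levels of different members were compared per kilobase of the coding transcript with the longest reading frame in GENCODE (NCBIM37). Over the 95 libraries E2f4 was highest, at 380 ± 82.7 reads per 10000000 and kilobase (SD), and E2f2 lowest, at 5.66 ± 2.48. E2f6 (188 ± 38.4) and E2f1 (169 ± 69.6) came next to E2f4 and did not differ beyond their spread. They were followed by E2f5 (125 ± 17.9), E2f3 (111 ± 17.0), E2f8 (67.2 ± 25.2) and E2f7 (54.5 ± 26.1). E2f5 and E2f3 lay within their spread of each other, as did E2f8 and E2f7, but E2f8 was below E2f3 by more than either SD. These SDs run over all hours and so include the change in time. This order over all hours did not hold in each window: at 4-8.5 h E2f1 (76.4 ± 22.7) was below E2f5 (123 ± 18.6) and E2f3 (113 ± 11.1), and at 14-18.5 h it stood at 244 ± 47.9 beside 228 ± 25.4 for E2f6. E2f4 was higher than E2f1 in the mean of starved libraries (242 ± 25.8 against 141 ± 28.0), of 4-8.5 h (497 ± 49.3 against 76.4 ± 22.7) and of 14-18.5 h (375 ± 34.5 against 244 ± 47.9). E2f4 thus stayed above E2f1 in the 3 means, with the widest gap at 4-8.5 h.

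As shares of the summed per-kilobase level of all 8 members, E2f4 and E2f5 together made up 48.9% and 46.7% in the starved libraries of Cycle 1 and 40.6% and 41.7% in those of Cycle 2. Their share was highest at 5.5 h in Cycle 1 (63.4%) and at 5 h in Cycle 2 (62.5%) and lowest at 15 h (35.3%) and 16 h (39.0%). The 5.5 h and 15 h libraries of Cycle 1 stood apart from their neighbours over all genes, as given below. In those neighbours the share was 61.8% (5 h), 60.0% (6 h), 39.5% (14.5 h) and 38.5% (15.5 h). The 3 activators went the other way, from 29.5% before serum to a mean of 17.9% ± 2.17 at 4-8.5 h and 28.8% ± 1.68 at 14-18.5 h in Cycle 1 (SD, n = 10 for both windows). E2f7 and E2f8 rose from 5.41% to 14.4% ± 1.89 in Cycle 1, while in Cycle 2 they were at 12.6% before serum and 12.1% ± 0.714 at 14-18.5 h (n = 5). A share falls when other members rise, so these shares carry no test.

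**Figure D5:**
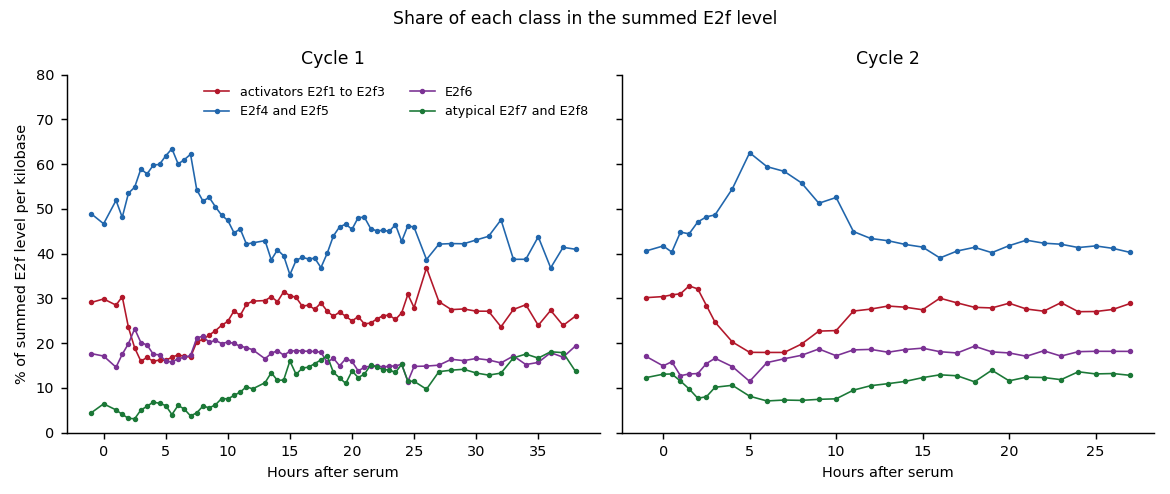
Share of the summed per-kilobase E2f level (vertical axis, percent) held by the activators, by E2f4 with E2f5, by E2f6 and by the atypical members, plotted against hours after serum in every library of Cycle 1 (left) and Cycle 2 (right). The E2f4 and E2f5 share peaks at 63.4% and 62.5% near 5 h, when the activators are near 18%.

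Some libraries of Cycle 1 stood apart and touch the members. The 24.5 h library was the farthest of 59 from its neighbouring libraries, with a median distance of 0.41 (log2) over 9112 genes. E2f1 was at 787 there, beside 509 at 24 h and 626 at 25 h, E2f4 was at 998 beside 742 and 799, and E2f5 was at 134 beside 223 and 257. At 26 h E2f1 was at 859, beside 626 at 25 h and 684 at 27 h, and E2f8 was at 158 beside 291 and 354. No call of a member in a window changed when the 24.5 h or the 26 h library was left out. The 5.5 h and 15 h libraries ranked 3 and 7 of 59 in this distance and were not left out singly. E2f6 was at 399 at 5.5 h, beside 422 at 5 h and 406 at 6 h. E2f8 was at 443 at 15 h, beside 337 at 14.5 h and 367 at 15.5 h.

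The genes whose course was most like that of a member were sought among 9112 genes with a mean of at least 100 reads per 10000000, by the lower of the 2 within-Cycle Pearson correlations. The points are successive libraries of the same time courses (n = 63 and 32), so the values describe likeness only. E2f1 was most like Tcf19 (r 0.96 and 0.95), the polymerase alpha subunit gene Pola2 (0.95 and 0.96) and the DNA ligase gene Lig1 (0.94 and 0.94). E2f7 was most like Chaf1a (0.96 and 0.95), Exo1 (0.98 and 0.94) and Dnmt1 (0.97 and 0.93), and E2f8 was most like Supt16 (0.89 and 0.90), Ercc6l and Blm.

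The remaining members had other companions. E2f4 was most like Mogs (0.90 and 0.92), Nes and Rwdd4a. E2f3 was most like Akap2 (0.76 and 0.75), Esf1 and Utp15, E2f6 most like Mb21d1 (0.86 and 0.84), Tnfrsf21 and Ppat, and E2f5 most like Slc24a5 (0.68 and 0.71), Mycbp and Psmd14. For the scarce E2f2 the closest gene, Adcy3, reached 0.53 and 0.55. Between members, E2f7 and E2f8 were closest (0.91 and 0.82), followed by E2f1 and E2f7 (0.86 and 0.79), while E2f1 and E2f4 ran apart (-0.24 and -0.59). With E2f1, E2f7 and E2f8, E2f2 reached 0.708, 0.669 and 0.614 in Cycle 1, but 0.125, 0.072 and 0.258 in Cycle 2.

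Other genes of the pathway were counted in lists chosen with earlier results known. Of the dimer partners, through which E2f1 to E2f6 bind DNA, Tfdp1 was higher at 14-18.5 h by 0.68 ± 0.13 on the log2 scale (from a median of 531 to 842 reads per 10000000) and Tfdp2 was at -0.10 ± 0.11. Of the 3 pocket proteins at 14-18.5 h, Rbl1 (p107) was higher by 0.58 ± 0.24, and Rb1 and Rbl2 (p130) were lower, with log2 changes of -0.55 ± 0.18 and -1.12 ± 0.19. All 3 were lower at 4-8.5 h, beside 41.4% of all genes, with Rbl2 at -1.61 ± 0.19. At 14-18.5 h 35.9% of all genes were lower.

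Of the 7 genes of the MuvB complex with B-Myb and FoxM1, which carry transcription into G2/M, 5 were higher and none lower at 14-18.5 h, beside 26.8% and 35.9% of all genes. Mybl2 was higher by 2.12 ± 0.33 (from 99.8 to 438), Foxm1 by 1.08 ± 0.28, Lin9 by 0.76 ± 0.22, Lin54 by 0.53 ± 0.20 and Rbbp4 by 0.36 ± 0.09, while Lin37 (0.23) and Lin52 (0.10) did not pass. Of the 9 genes of the E2f6 complex 4 were higher and 4 lower at the same hours, beside those same shares. Ezh2 rose by 0.87 ± 0.17 and L3mbtl2 by 0.86 ± 0.15, Max by 0.27 ± 0.09, Mga fell by 0.70 ± 0.18 and Cbx3 was at -0.21 ± 0.20.

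Of the 13 upstream G1 genes 8 were higher and 2 lower at 14-18.5 h, beside 26.8% and 35.9% of all genes. Ccne1 rose by 1.96 ± 0.30 (from 363 to 1445), Ccne2 by 1.44 ± 0.26 and Ccnd1 by 1.10 ± 0.20, while Cdkn2c (-0.18 ± 0.30) and Ccnd3 (-0.14 ± 0.13) did not pass. Of the 6 genes listed around the degradation and inactivation of E2F proteins, 4 were higher at 14-18.5 h (26.8% of all genes) and 6 at 19-23.5 h (27.4%). At the later hours Ccnf, the F-box cyclin, was higher by 1.89 ± 0.28, Cdc20 by 1.72 ± 0.31, Ccna2 by 1.21 ± 0.30, Cks1b by 1.18 ± 0.17, Skp2 by 0.72 ± 0.17 and Fzr1 by 0.65 ± 0.20.

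Of 36 G1/S targets 35 were higher and none lower at 14-18.5 h, with a median log2 change of 1.28, beside 26.8% and 35.9% of all genes and their median of -0.12. Rrm2, a subunit of ribonucleotide reductase, rose by 2.57 ± 0.28, Cdc6 by 2.15 ± 0.36 and Mcm10 by 1.86 ± 0.32. Pola1 (0.39 ± 0.24) was the one that did not pass. Of 20 G2/M genes 7 were higher at 14-18.5 h and 18 at 19-23.5 h (27.4% of all genes), with Ube2c (1.98 ± 0.35), Birc5 (1.91 ± 0.36) and Aurka (1.82 ± 0.34) leading and Nusap1 (0.68 ± 0.36) and Cenpf (0.44 ± 0.36) not passing. At 4-8.5 h 17 of the 20 were lower, beside 41.4% of all genes.

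The label of the cells was checked against marker genes. All 11 fibroblast markers had a median of at least 100 reads per 10000000, and their sum ran from 433136 to 612988 in the starved libraries and from 184638 to 576400 after serum. Blood and macrophage markers (6 of 7 measured) summed to 1118 to 3398 before and 499 to 4782 after serum. The 5 endothelial markers summed to 180 to 282 and 37.2 to 270, the 5 epithelial to 83.9 to 230 and 14.6 to 345, the 5 neural to 158 to 234 and 54.6 to 371, and 3 of 4 muscle markers to 609 to 1667 and 313 to 2180. None of the 5 erythroid markers was in the table. The part of other cell types in the members' levels was not tested.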

How the data were processed

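Poly(A) RNA of MEFs was read as single ends in 95 libraries of 2 time courses. Per the labels and the study's methods, the authors used CASAVA, aligned to mm9 with STAR and counted reads on exons with HOMER over both strands, so reads from a gene and an antisense neighbour cannot be told apart. The deposited values are a normalized signal, each library being scaled to 10000000 reads. Of the columns 95 were matched to libraries by name and 1 was not used, because its name matches no title. The smallest step of a column was taken as 1 read, which gave whole reads for 94.2% to 96.2% of low values. Recovered depth was 5067426 to 14500314 reads (median 10832559). Depth limits the precision of E2f2 most, with 4 to 62 reads a library.

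limma 3.58.1 in R 4.3.3 was fitted to all 15895 genes without a filter, on log2(value + 1), trend and robust off, with Benjamini-Hochberg adjustment over all genes of a contrast and a call at an adjusted p under 0.05. Cycle was the block: the number in each title names the time course. The study divided each value by a mean of the -1 and 0 h samples and does not state whether this was within a Cycle. Differences between the Cycles at 29 shared hours correlated between hours with a median r of 0.471 over 406 pairs of hours. edgeR 4.0.16 on recovered reads, TMM scaling, other pseudocounts (0.5 and 5), filters on the mean value (10 and 50), no replicate block and left-out libraries were alternatives. In simulated data on these genes 200 of 200 changed genes were found by limma in the window fit, with 20 others called. The changed genes had a mean above 50, and their changes were found at a median size of 0.98 (log2). Libraries were drawn independently, without a trend inside a window or a starting difference between the Cycles. The simulation thus does not cover these features of the time courses or a gene as scarce as E2f2. Python 3.11.15 was used for the descriptions.

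The members and gene lists were chosen with earlier results of these data known. All members are named, lists of up to 7 genes in full, and longer lists by the 3 largest and 2 smallest log2 changes in size. A gene that this rule picks is not reported here. Transcript lengths and NCBIM37 coordinates came from GENCODE, promoters from RefSeq. Motifs were counted in windows of 300 bases.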

Additional observations from a re-analysis of the deposited data

Results flagged for a closer look

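In 4 of the 32 groups of libraries examined (a member in a window of 4 to 10 libraries, with the Cycles pooled), the highest or lowest value stood far from the others, and chance alone gives about 1 in 20 groups. E2f8 had 2 of these, at 26 h (158 reads per 10000000) and at 38 h (283) of Cycle 1, both the lowest of their window. E2f1 at 37 h of Cycle 1 (380) was also the lowest of its window, and E2f6 at 24.5 h of Cycle 1 was at 345. The 24.5 h library stood apart over all genes as well, and its part in the E2f6 value was not tested.

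The change from starved differed between the 2 Cycles for 5 of the 8 members by limma's F test of the interaction, and for 37.3% of all genes. The adjusted p was 9.16e-13 for E2f7, 1.4e-07 for E2f8, 0.00011 for E2f1, 0.00274 for E2f2 and 0.00309 for E2f6. Each Cycle was 1 time course with 2 starved libraries. From 4-8.5 h to 14-18.5 h, a contrast that uses no starved library, the change also differed between the Cycles for E2f7 (adjusted p 3.02e-06 by limma), E2f8 (0.0303) and E2f2 (0.0369). It differed for 7.64% of all genes.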

How the results depend on the processing

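Over the alternatives, 1552 of 1637 values of the members kept their side of the threshold, 38 lost their call and 41 gained one. Another 6 changed sign with a call in the main fit or in the alternative, and these 6 came from leaving out Cycle 1. A change of sign without a call in either was counted as kept, such as E2f1 at 9-13.5 h (0.32, and -0.24 in Cycle 2 alone). With 1 Cycle left out the log2 change of E2f8 ran from -0.66 to 0.719 at 4-8.5 h, from -0.573 to 1.373 at 9-13.5 h, from -0.087 to 2.14 in the 14-18.5 h window, from -0.11 to 1.774 in the 19-23.5 h window and from -0.016 to 1.665 in the 24-27 h window. For E2f2 it ran from -0.688 to 0.611 at 9-13.5 h. The genes called against E2f1 were 11158, but 7260 with a mean value of at least 50, and 4889 to 11936 with libraries or a Cycle left out, lowest without Cycle 1. The members called there were 2, and 1 to 2 with libraries left out, 1 without the -1 h or the 0 h library of Cycle 1 or without Cycle 1, and 3 with a pseudocount of 5. The median hour at which 7 members reached the midpoint of their rise was 4 in Cycle 1, but 7.5 with a running median of 5, linear values or the 0 h reference only, and 8.5 with 0.75 of the rise in place of its midpoint.

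Without the replicate block (Cycle), 28 of 48 pairs of member and window were called, as with it. It raised the members called against E2f1 to 3, and gave calls to E2f5 at 28-32 h (0.29, adjusted p 0.0342 by limma), E2f6 at 33-38 h (0.36, adjusted p 0.0367) and E2f2 against E2f1 (-0.70, adjusted p 0.0441). With TMM scaling the falls of E2f1 and E2f2 at 0.5-3.5 h did not pass (-0.39, adjusted p 0.125, and -0.56, adjusted p 0.114), nor with edgeR (-0.31, adjusted p 0.203, and -0.60, adjusted p 0.0524). edgeR was not run against E2f1 or for the difference between the Cycles from 4-8.5 h to 14-18.5 h. Counting error limits E2f2 most, with 4 reads in its lowest library.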

Other observations

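Past 30 h, in Cycle 1 only, E2f4 changed level between neighbouring libraries. It was at 821 reads per 10000000 at 31 h and 842 at 32 h, and at 579 at 33 h and 608 at 34 h, and it ended at 573 at 38 h. From 32 h to 33 h E2f5 also fell, from 282 to 172, as did E2f6 (463 to 417), E2f1 (496 to 453) and E2f2 (23.2 to 19.3). E2f7 (422 to 428), E2f8 (318 to 331) and E2f3 (489 to 502) did not. E2f3 dropped from 609 at 34 h to 306 at 35 h and then stood at 356 to 392. The 33 h and 35 h libraries ranked 10 and 8 of 59 in distance from their neighbours, and the 35 h library held 5105638 reads. These hours have no second time course, and the steps were not tested.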
